A study of Capra hircus with 10 samples.

Results

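Chromatin regulators are the enzymes and adaptors that write, remove and read chemical marks on histones and DNA or that move nucleosomes. The circRNAs described here are those whose host gene, the gene from whose transcript the circle is spliced, has a symbol that begins with one of the usual names of such regulators (KMT, KDM, CHD, ATRX, KAT, NCOA, PHF and others), with EHMT1 and WHSC1 left out. They were 41 of the 1327 circRNAs with counts and came from 27 of 945 named host genes. One of them, KATNBL1, only shares the letters KAT and belongs to the microtubule-severing katanin proteins. The cells were wild-type (WT) goat preadipocytes from intramuscular fat. The intramuscular preadipocytes (IMPA) were taken at day 0, before induction, and the intramuscular adipocytes (IMA) at day 3 of adipogenic differentiation under 50 µmol/L oleic acid, with 5 libraries in each group. The cultures came from the longissimus muscle of 3 male Jianzhou goats aged 7 days. Which goat gave which library is not given in the sources used here, so some of the 5 libraries in a group share an animal, and the p-values measure the spread between libraries.

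During adipogenesis, histone acetylation and methylation at enhancers and promoters accompany the induction of the PPARG and CEBPA programme, while Polycomb marks hold other lineage genes silent. Nucleosome remodellers and coactivators of nuclear receptors open the same sites. A circRNA arises when a downstream splice donor of such a gene's transcript is joined back to an upstream acceptor, and its level need not follow the level of the linear mRNA. Only reads across that back-splice junction count a circle. Reads at the same splice sites that do not cross it, the non-junction reads, are taken here as the linear RNA. A larger circle that holds the same site can give such reads too, and its part was not separated.

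Depth ran from 11421 to 15553 junction reads per IMPA library and from 9622 to 12499 per IMA library. Member circRNAs took 300, 295, 365, 312 and 411 of these reads in IMPA1 to IMPA5 and 277, 272, 352, 265 and 267 in IMA1 to IMA5. Their share of all junction reads was 2.48% ± 0.208 (SD, n = 5) in IMPA against 2.67% ± 0.128 (SD, n = 5) in IMA. The groups overlapped, and IMPA1 with 2.12% lay below all other libraries. An IMPA library held reads of 36 to 38 members and an IMA library of 36 to 40. The reads were few for each circle, and 75.9% of the members' counts above 0 were under 10 (68.8% over all circRNAs). No count of 1 occurs, so a 0 may stand for 1 read or for a circle that was not called in that library. Levels below are given as junction reads or as normalized TPM, the count per 1000000 junction reads after TMM scaling, with no term for length.

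All 41 members had reads in at least 5 libraries and were tested with edgeR's quasi-likelihood test. At an adjusted p under 0.01 it called 0 members in either direction, where 0.464% of the 1294 circRNAs tested were higher in IMA and 0.464% lower. Limma voom also called 0 members. DESeq2's own filter left an adjusted p for 1 of the 41 members, and its Wald test without that filter, run after the data were seen, called 0 of 41. At an unadjusted p under 0.05, edgeR gave 4 members higher in IMA (9.76% of the members, beside 4.79% of all circRNAs) and 2 lower (4.88%, beside 8.35%), DESeq2 gave 3 and 3, and limma voom 6 and 4. Of the 4, CHD2 circ_0009572 met the filter through IMA alone, and MBD2 and PHF10 were counted in 1 IMPA library. The counts moved with single libraries. With edgeR 1 was higher without IMPA5 and 2 without IMA2, and 1 was lower without IMPA4 and 4 without IMA4. When an IMA library was left out, CHD2 circ_0009572 fell below the filter, and 40 members were tested. The counts were 1 and 2 with the replicate number as block, and 8 and 1 with uniquely mapped reads as library size. The fitted log2 fold change was above 0 for 23 members and below 0 for 18, with a median of 0.10, or 0.02 with members at the detection floor set to their bound, beside −0.08 and −0.04 over all circRNAs tested. With a library left out the members' median ran from −0.06 to 0.10, and it was below 0 without IMPA2 (−0.02), IMPA4 (−0.05), IMA2 (−0.01) or IMA5 (−0.06), and 0.00 without IMA3. With uniquely mapped reads as library size the median of all circRNAs moved to 0.17 and that of the members to 0.35, so each difference is relative to the other circRNAs of a library. After summing junction reads per host gene, edgeR called 0 of the 27 genes (1.3% of 922 host genes passed), as did DESeq2 and limma voom. At an unadjusted p under 0.05 the sums of 5 of the 27 genes were higher (6.62% of all) and of 2 lower (9.44% of all) with edgeR, 5 and 2 with DESeq2, and 6 and 2 with limma voom. The 5 with edgeR were CHD2, KMT2E, MBD2, PHF10 and KATNBL1. Of these, the CHD2 sum holds the reads of circ_0009572, and MBD2 and PHF10 were counted in 1 IMPA library. KATNBL1, which is no chromatin regulator, stood apart in IMA2. With edgeR the sums of 3 genes were higher without IMPA1 or IMPA5, 2 with the block, and 8 with uniquely mapped reads. In bulk cultures, fewer cells of a type and less RNA per cell cannot be told apart.

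**Figure D1:**
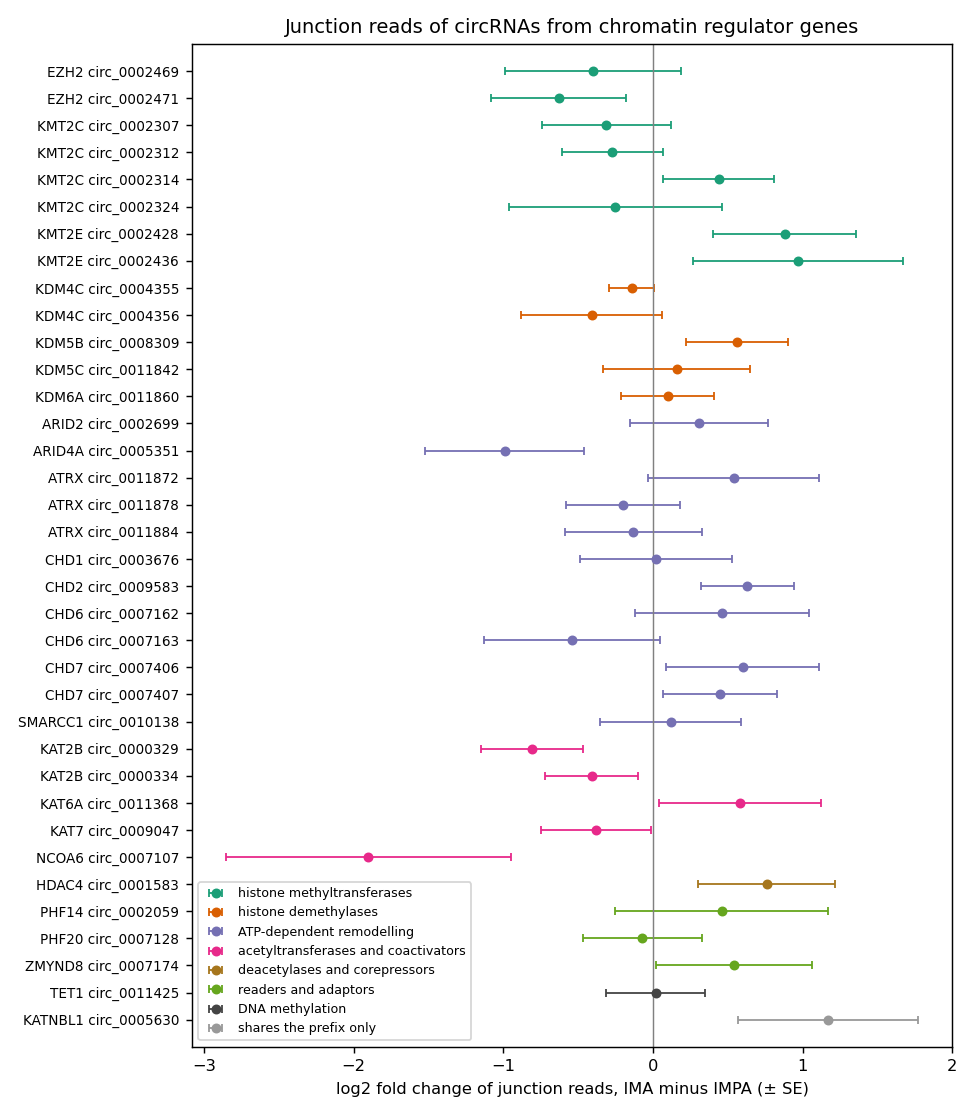
Log2 fold change of junction reads (IMA minus IMPA, x axis) of the 36 member circRNAs with more than 3 reads in at least 1 library of both groups, grouped by colour by the role of the host gene; points are edgeR estimates and bars ± 1 SE, from 5 libraries per group. NCOA6 circ_0007107 is farthest to the left at −1.90 (without IMA4 its IMA group is at the floor). KATNBL1 is farthest to the right at 1.17 (0.46 without IMA2), and all other points lie between −1 and 1.

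The KMT and EZH genes, grouped by name under histone methyltransferases, gave 8 circRNAs of 3 genes, and 0 of them passed the test. KMT2C, which methylates histone H3 at enhancers, had 4 circRNAs, the most of any member gene. Summed over them it had 32, 31, 31, 24 and 33 reads in IMPA1 to IMPA5 and 22, 15, 27, 26 and 31 in IMA1 to IMA5. Scaled to library size the groups overlapped, with 2307 ± 266 normalized TPM (SD, n = 5) in IMPA against 2252 ± 629 (SD, n = 5) in IMA. The difference was −0.04 ± 0.20 (log2, SE; edgeR adjusted p = 0.946), and it was 0.02 without TMM and 0.20 with uniquely mapped reads. Of these circles, circ_0002307, circ_0002312 and circ_0002314 end at the same splice donor on chromosome 4 (position 5126553), and their starts lie at 5096928, 5115826 and 5121711. The shortest in span, circ_0002314, took 26.3% ± 5.99 (SD, n = 5) of the gene's junction reads in IMPA against 37.7% ± 13.1 (SD, n = 5) in IMA, with overlapping libraries. The middle circle, circ_0002312, took 37% ± 8.91 and 30.8% ± 7.71 (SD, n = 5 each).

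KMT2E carries a SET domain and binds methylated histone H3. Its 2 circRNAs, which share a splice site, together had 5, 3, 10, 9 and 7 reads in IMPA1 to IMPA5 and 10, 13, 11, 9 and 10 in IMA1 to IMA5. After scaling, every IMA library lay above every IMPA library, with 515 ± 216 normalized TPM (SD, n = 5) against 984 ± 154 (SD, n = 5). The difference of 0.92 ± 0.35 (log2, SE) did not pass after adjustment (edgeR adjusted p = 0.168). Of circ_0002428 alone, IMPA2 had 0 reads, the other IMPA libraries 5 to 7, and the IMA libraries 6 to 8. EZH2, the catalytic subunit of a Polycomb repressive complex, also had 2 circRNAs with a shared splice site, at 1111 ± 289 normalized TPM in IMPA against 779 ± 401 in IMA (SD, n = 5 each; log2 difference −0.53 ± 0.33, SE, edgeR adjusted p = 0.441). Each of the EZH2 circles was at 0 in a different IMA library, circ_0002471 in IMA1 and circ_0002469 in IMA2.

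Histone demethylases gave 5 circRNAs of 4 genes but 31.7% of the members' reads. Most came from KDM4C, which removes repressive methyl groups from histone H3. Its circ_0004355 (chromosome 8, positions 37869216 to 37890040, minus strand) was the most abundant member and ranked 16 among all circRNAs. It had 57, 64, 87, 62 and 94 reads in IMPA1 to IMPA5 and 59, 51, 65, 60 and 39 in IMA1 to IMA5. The groups overlapped, IMA5 was lowest and IMPA5 highest in reads, and after scaling the means were 5505 ± 904 and 5003 ± 823 normalized TPM (SD, n = 5 each). The log2 difference of −0.14 ± 0.15 (SE, edgeR adjusted p = 0.712) was within the spread and turned to 0.11 with uniquely mapped reads as library size. With a library left out it ran from −0.24 (without IMPA1) to −0.07 (without IMA5). With the smallest SE of the members, this circle was the best measured. A second KDM4C circle from the same splice site, circ_0004356, spans 33946 nt in place of 20825 nt and took 9.26% ± 4.27 of the gene's junction reads in IMPA against 7.91% ± 3.83 in IMA (SD, n = 5 each).

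The X-linked KDM6A, which removes the methyl mark that Polycomb sets, gave the next most abundant member. Its circ_0011860 had 14, 8, 14, 22 and 15 reads in IMPA1 to IMPA5 and 10, 20, 14, 4 and 17 in IMA1 to IMA5. After scaling, the IMA libraries spanned the whole IMPA range, and the log2 difference was 0.10 ± 0.31 (SE; edgeR adjusted p = 0.913). KDM5B and KDM5C remove methyl groups that mark active promoters. KDM5B circ_0008309 had 3, 12, 11, 8 and 11 reads in IMPA1 to IMPA5 and 10, 15, 9, 8 and 13 in IMA1 to IMA5. Apart from IMPA1, which was lowest, its libraries overlapped (log2 difference 0.56 ± 0.34, SE, edgeR adjusted p = 0.491; 0.31 without IMPA1). KDM5C circ_0011842, the shortest span of the members at 412 nt, had 2 to 9 reads in IMPA against 3 to 9 in IMA.

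The CHD, ATRX, ARID and SMARC genes, grouped by name under remodelling, gave 13 circRNAs of 8 genes. Of these circles 9 had a fitted log2 fold change above 0, and 0 passed the test, beside 581 of the 1294 circRNAs above 0. With uniquely mapped reads 11 of the 13 and 779 of the 1294 were above 0. CHD2, a chromodomain remodeller, had 2 circRNAs on chromosome 21. The larger in reads, circ_0009583 (positions 13394041 to 13399888, minus strand), had 12, 10, 14, 5 and 8 reads in IMPA1 to IMPA5 and 11, 14, 15, 14 and 9 in IMA1 to IMA5. Its level was 745 ± 262 normalized TPM in IMPA against 1154 ± 231 in IMA (SD, n = 5 each), with IMA1 and IMA5 inside the IMPA range. The log2 difference of 0.63 ± 0.31 (SE) did not pass (edgeR adjusted p = 0.358). The other circle, circ_0009572, was at 0 in all 5 IMPA libraries and had 3, 2, 2, 2 and 2 reads in IMA1 to IMA5, so both groups were at the floor, which is 3 reads in each library. It was 1 of 4 tested circRNAs that met the filter of 5 libraries through IMA alone, so neither its test nor its lack of overlap counts as a result. As a gene, CHD2 had 744 ± 251 normalized TPM in IMPA against 1372 ± 229 in IMA (SD, n = 5 each). The IMA libraries were all higher, which rests on the added reads of circ_0009572, and the log2 difference of 0.88 ± 0.29 (SE) had an edgeR adjusted p of 0.112.

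ATRX, which places a histone H3 variant at repeats, gave 3 circRNAs from the X chromosome. Their summed reads were 17, 19, 25, 17 and 18 in IMPA1 to IMPA5 and 13, 15, 24, 15 and 13 in IMA1 to IMA5. The groups overlapped and the normalized means were almost the same, 1470 ± 261 and 1464 ± 286 normalized TPM (SD, n = 5 each; log2 difference 0.01 ± 0.24, SE, edgeR adjusted p = 0.992). Its circ_0011872 spans 54373 nt, the longest of the members, and is listed with 370 nt after splicing. The shorter circ_0011878, which lies within it and shares its end, is listed with 413 nt. These lengths are from the annotation and were not measured. CHD7, mutated in CHARGE syndrome, had 2 circles from 1 splice site with 10 to 20 reads in each IMA library and 6 to 19 in each IMPA library (log2 difference of the sum 0.52 ± 0.29, SE, edgeR adjusted p = 0.378). Of CHD6, ARID2, CHD1 and SMARCC1, a core subunit of the BAF complex, each circle had 12 or fewer reads in every library, with edgeR adjusted p of 0.723 to 0.992. ARID4A, a partner of the Sin3 deacetylase complex, had 7, 5, 7, 5 and 17 reads in IMPA1 to IMPA5 and 0, 3, 7, 5 and 2 in IMA1 to IMA5. IMPA5 stood above all others, and the log2 difference was −0.99 ± 0.53 (SE; edgeR adjusted p = 0.413), or −0.61 without IMPA5.

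Acetyltransferases and coactivators gave 7 circRNAs of 4 genes, 0 of which passed the test. The fitted log2 fold change was below 0 for 6 of the 7, beside 713 of the 1294 circRNAs tested, and roles were not tested against each other. KAT2B (PCAF), a histone acetyltransferase, had 3 circRNAs on chromosome 1. Their summed reads were 31, 33, 34, 32 and 37 in IMPA1 to IMPA5 and 22, 20, 15, 17 and 11 in IMA1 to IMA5. All 5 IMA libraries lay below all 5 IMPA libraries, in reads and after scaling, with 2558 ± 248 normalized TPM in IMPA against 1579 ± 416 in IMA (SD, n = 5 each). The log2 difference was −0.70 ± 0.21 (SE), with the smallest adjusted p of the 27 genes (edgeR adjusted p = 0.0569), which did not pass 0.01. With uniquely mapped reads it was −0.46 (edgeR adjusted p = 0.225, within a range over all alternatives of 0.0445 to 0.225). Groups without overlap occurred for 2.17% of host genes lower in IMA and for 2.6% higher in IMA, and among the members for KAT2B on the first side and for KMT2E, PHF10 and, with the reads of circ_0009572, CHD2 on the other.

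The KAT2B circles differed in their values. Circ_0000329 (positions 157111670 to 157147023, plus strand) had 14, 13, 11, 16 and 11 reads in IMPA1 to IMPA5 and 4, 7, 8, 7 and 5 in IMA1 to IMA5. Each IMA library was below each IMPA library, from 1005 ± 244 to 568 ± 147 normalized TPM (SD, n = 5 each; log2 difference −0.81 ± 0.34, SE, edgeR adjusted p = 0.238). It was the 1 member without overlap on the lower side (2.16% of all circRNAs). On the higher side (2.24% of all) stood PHF10, at the floor and after scaling only, and CHD2 circ_0009572, whose lack of overlap the filter fixed. Circ_0000327, which starts at the same position and ends at 157128882, had 3, 3, 5, 5 and 4 reads in IMPA1 to IMPA5, 0 in IMA1 to IMA4 and 3 in IMA5 (edgeR adjusted p = 0.22). Circ_0000334, a circle of 2 inner exons at 157133204 to 157134775, had 14, 17, 18, 11 and 22 reads in IMPA1 to IMPA5 and 18, 13, 7, 10 and 3 in IMA1 to IMA5. Here the groups overlapped, with IMA1 at the level of IMPA and IMA5 far below it (log2 difference −0.41 ± 0.31, SE, edgeR adjusted p = 0.58). The difference was −0.72 without IMA1, −0.26 without IMA3, −0.21 without IMA5 and −0.16 with uniquely mapped reads.

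NCOA6, a coactivator of PPARG and other nuclear receptors, gave 2 circles of few reads from 1 splice site. Together they had 7, 6, 7, 8 and 9 reads in IMPA1 to IMPA5 and 0, 2, 2, 6 and 0 in IMA1 to IMA5. IMA4 reached the IMPA range, and the other IMA libraries lay below it (log2 difference −1.60 ± 0.62, SE, edgeR adjusted p = 0.18). The size of this difference rests on IMA4: without it the IMA group was at the floor (edgeR adjusted p = 0.0558, within a range over all alternatives of 0.0537 to 0.292). Of circ_0007107 alone, IMA4 had 4 reads and the other IMA libraries 0. KAT7 circ_0009047 had 5 to 15 reads in IMPA against 4 to 11 in IMA (log2 difference −0.38 ± 0.37, SE). KAT6A, the exception in direction, had 2 to 6 reads in IMPA against 3 to 8 in IMA (0.58 ± 0.54, SE; 0.38 without IMPA1 and 0.29 without IMA4).

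**Figure D2:**
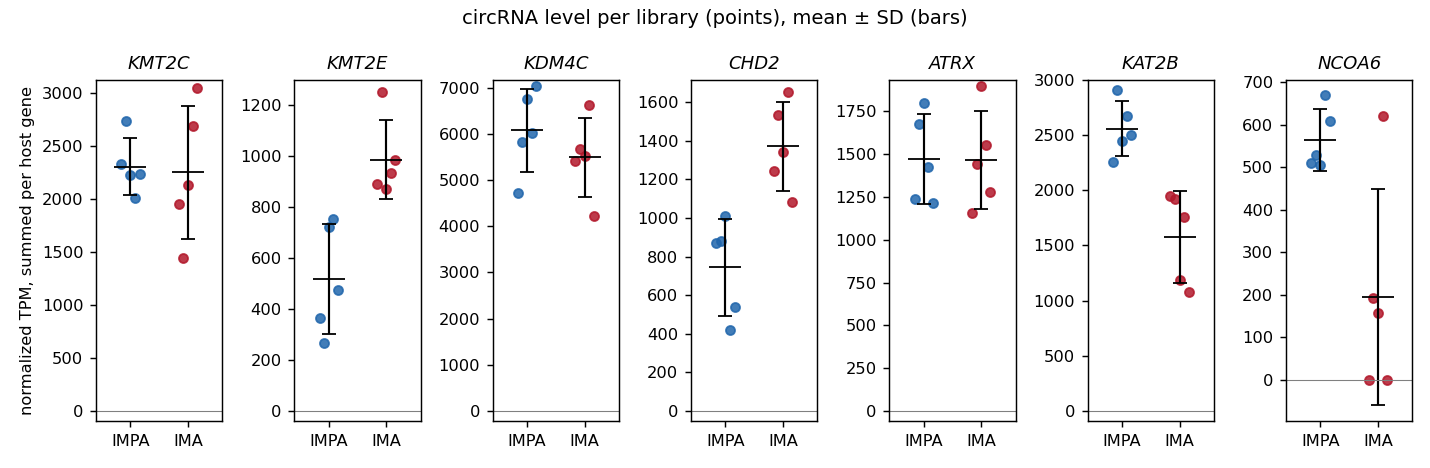
Normalized TPM summed over the circRNAs of a host gene (y axis, its own scale in each panel) in 5 IMPA libraries (blue) and 5 IMA libraries (red), for 7 genes; points are libraries, horizontal lines the mean and bars ± 1 SD. The groups do not overlap for KMT2E and, with the reads of circ_0009572, CHD2 (IMA higher) or for KAT2B (IMA lower), and they overlap for KMT2C, KDM4C, ATRX and NCOA6.

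HDAC4, a deacetylase that restrains muscle gene activity, was the 1 member named as a deacetylase or corepressor (HDAC, NCOR). Its circle had 5, 3, 5, 11 and 2 reads in IMPA1 to IMPA5 and 4, 7, 12, 7 and 7 in IMA1 to IMA5. The libraries overlapped (log2 difference 0.76 ± 0.46, SE, edgeR adjusted p = 0.487). The PHF, MBD and ZMYND genes, grouped by name under readers and adaptors, gave 5 circRNAs of 5 genes. MBD2, which binds methylated DNA, had 3 reads in IMPA1, 0 in the other IMPA libraries and 3, 2, 4, 3 and 2 reads in IMA1 to IMA5 (edgeR adjusted p = 0.236). PHF10, a subunit of a BAF-type remodelling complex, had 2 reads in IMPA3, 0 in the other IMPA libraries and 2, 2, 3, 2 and 2 in IMA1 to IMA5, with both groups at the floor (edgeR adjusted p = 0.251). In both genes the circle was counted in 1 of 5 IMPA and 5 of 5 IMA libraries, at counts of 4 or fewer. PHF14 had 2, 2, 4, 3 and 2 reads in IMPA1 to IMPA5 and 7, 2, 3, 3 and 0 in IMA1 to IMA5, with overlap (edgeR adjusted p = 0.807).

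ZMYND8, a reader of acetylated histones, had 0, 19, 0, 12 and 22 reads in IMPA1 to IMPA5 and 17, 0, 25, 10 and 13 in IMA1 to IMA5. The zeros of IMPA1, IMPA3 and IMA2 stand apart from counts of 10 to 25 in the rest, and only 56 nt of exon are listed for a circle that spans 7314 nt. TET1, which oxidizes methylated cytosine, had 15, 6, 18, 9 and 12 reads in IMPA1 to IMPA5 and 4, 11, 10, 11 and 14 in IMA1 to IMA5, with wide overlap (log2 difference 0.02 ± 0.33, SE, edgeR adjusted p = 0.991; −0.04 with limma voom). KATNBL1 had 2 to 4 reads in each IMPA library and 5, 14, 3, 3 and 3 in IMA1 to IMA5, so that IMA2 stood apart (log2 difference 1.17 ± 0.60, SE, edgeR adjusted p = 0.388). Without IMA2 the difference was 0.46 (edgeR adjusted p = 0.793, within a range over all alternatives of 0.231 to 0.793).

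Non-junction reads, taken as the linear RNA at the same splice sites, had more depth. The 23 members with entries in all 10 libraries had a median of 174 such reads per library. Non-junction reads are listed only for libraries in which the circle was counted. The test therefore covered the 690 circRNAs with entries in all 10 libraries, 23 of them members. With edgeR 1 member was higher in IMA at an adjusted p under 0.01 (11.6% of all circRNAs tested were) and 0 lower (10.1% of all). DESeq2 and limma voom also gave 1 and 0. At an unadjusted p under 0.05 edgeR and limma voom gave 2 higher and 3 lower, and DESeq2 2 and 1. For edgeR these were 8.7% and 13% of the members, beside 22.9% and 21.9% of all circRNAs tested. The counts were 1 and 6 without TMM and with uniquely mapped reads. With edgeR 1 was higher without IMPA1, IMPA5, IMA1 or IMA2, and 5 were lower without IMPA5 or IMA1. The called member was PHF20, a reader in an acetyltransferase complex, at circ_0007128 on chromosome 13 (positions 64585963 to 64596132, plus strand). Its normalized non-junction reads per 1000000 were 1226, 1179, 911, 1182 and 916 in IMPA1 to IMPA5 and 1352, 1550, 1314, 1326 and 1373 in IMA1 to IMA5. Every IMA library was above every IMPA library (log2 difference 0.36 ± 0.09, SE, edgeR adjusted p = 0.00255), while the junction reads of the same circle differed by −0.07 ± 0.40 (log2, SE), or 0.17 with uniquely mapped reads as library size. The call was lost without IMPA3 (edgeR adjusted p = 0.01 after rounding, log2 difference 0.30) and without IMA2 (edgeR adjusted p = 0.0136, log2 difference 0.31), within a range over all alternatives of 0.000216 to 0.0136.

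SMARCC1 was nearest on the other side. At circ_0010138 its normalized non-junction reads were 1817, 1911, 2193, 1963 and 2274 in IMPA1 to IMPA5 and 1551, 1812, 1893, 1735 and 1672 in IMA1 to IMA5. Of the IMA libraries only IMA3 reached into the IMPA range, and the other 4 lay below it (log2 difference −0.23 ± 0.07, SE, edgeR adjusted p = 0.016). Scaling decided which of the 2 passed 0.01: without TMM, and with uniquely mapped reads, 0 members were higher and 1 was lower, SMARCC1 with a log2 difference of −0.30 and −0.29 (edgeR adjusted p = 0.00235 and 0.00626). Under these scalings PHF20 differed by 0.29 and 0.30, just short of the threshold (edgeR adjusted p = 0.012 and 0.0105). SMARCC1 also passed with the replicate number as block (edgeR adjusted p = 0.00617), without IMPA1 (0.00881) and without IMA3 (0.00926), within a range over all alternatives of 0.00235 to 0.057. At an adjusted p under 0.05 these 2 members, 1 in each direction, passed in the main test (18.4% of all circRNAs higher, 17.2% lower). Without TMM, and with uniquely mapped reads, 5 passed 0.05, with KDM5C and KAT2B circ_0000329 and circ_0000334 added on the lower side. Without IMA1 only PHF20 did. Without IMPA5 KDM5C stood in place of SMARCC1, KDM6A was added without IMPA2, and TET1 and KDM6A were added without IMA3. With missing entries dropped in limma, which covered 36 members and was added after the data were seen, CHD6 circ_0007162 and ARID4A joined PHF20 and SMARCC1 at 0.05, and 1 member passed 0.01. The non-junction reads at KAT2B circ_0000329 differed by −0.20 ± 0.09 (log2, SE, edgeR adjusted p = 0.0867), or −0.13 without IMA2 (edgeR adjusted p = 0.259). Those at KDM5C differed by −0.16 ± 0.07 (edgeR adjusted p = 0.0853), and those at KDM6A by 0.23 ± 0.10 (edgeR adjusted p = 0.0664).

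Set against the non-junction reads of the same sites, junction reads of most circRNAs were higher in IMA. Every IMA library also had fewer uniquely mapped reads, as the study counts them, than every IMPA library, and the part of this in the ratio was not tested. The log2 ratio of junction to non-junction reads had a median difference of 0.37 over the 1259 circRNAs tested with limma and 0.63 over the 36 members tested. It was above 0 for 28 of the 36 members and for 961 of the 1259 circRNAs. Limma called 0 members at an adjusted p under 0.01 (0.556% of all passed, all higher in IMA); at an unadjusted p under 0.05, 13 members were higher (36.1%, beside 21.6% of all) and 0 lower (1.35% of all). No other tool was run on this ratio. Libraries without reads of a circle give no ratio and drop out of its mean: of the members' counts 9.76% were 0 in IMPA against 8.29% in IMA, beside 6.8% and 13.5% over all circRNAs. Among the 23 members with entries in all libraries, a set chosen after the data were seen, the median was 0.46 beside 0.34 over 690 circRNAs, and 7 were higher at an unadjusted p under 0.05, beside 24.1% of the 690.

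The members with the smallest p for a higher ratio were CHD2 circ_0009583 (1.01 ± 0.33, log2, SE, limma adjusted p = 0.0958), KMT2E circ_0002428 (0.95 ± 0.31, limma adjusted p = 0.0958) and KAT6A (1.07 ± 0.37, limma adjusted p = 0.112). For CHD2 the normalized non-junction reads per 1000000 were 1350, 1545, 1277, 1518 and 1167 in IMPA1 to IMPA5 and 1275, 1295, 1460, 1293 and 1329 in IMA1 to IMA5. They overlapped widely (log2 difference −0.03 ± 0.08, SE, edgeR adjusted p = 0.789). Its circular share, in which junction reads weigh 2 and non-junction reads 1, was 6.46% ± 2.45 in IMPA against 11.9% ± 2.42 in IMA (SD, n = 5 each). On the other side stood ARID4A (−0.69 ± 0.39, limma adjusted p = 0.29), NCOA6 circ_0007105 (−0.36 ± 0.41, limma adjusted p = 0.623) and KAT2B circ_0000329 (−0.26 ± 0.32, limma adjusted p = 0.653). Single libraries moved these values: ARID4A was −0.41 without IMPA5. NCOA6 circ_0007105 was −0.10 without IMPA5, −0.14 without IMA2, −0.20 without IMA3 and −0.74 without IMA4. KAT2B circ_0000329 was −0.15 without IMPA4, −0.08 without IMA1 and −0.40 without IMA2. For this KAT2B circle both kinds of reads were lower in IMA, and its circular share was 10.8% ± 2.55 and 8.99% ± 2.88 (SD, n = 5 each).

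Circular shares of the 23 members with entries in all libraries ranged from 2.83% to 63.5% as a mean over libraries, with a median of 9.88% beside 11.8% for the 690 circRNAs. Of these members KDM4C circ_0004355 was highest, at 63.6% ± 5.12 in IMPA against 63.3% ± 7.30 in IMA (SD, n = 5 each). Counted singly, its junction reads were fewer than its non-junction reads in 7 of 10 libraries. HDAC4 followed with 51.3% ± 19.8 and 65.1% ± 16.2 (SD, n = 5 each), on 3 to 14 non-junction reads per library. At the low end KATNBL1 had 1.65% ± 0.567 and 4.01% ± 3.27 (SD, n = 5 each).

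**Figure D3:**
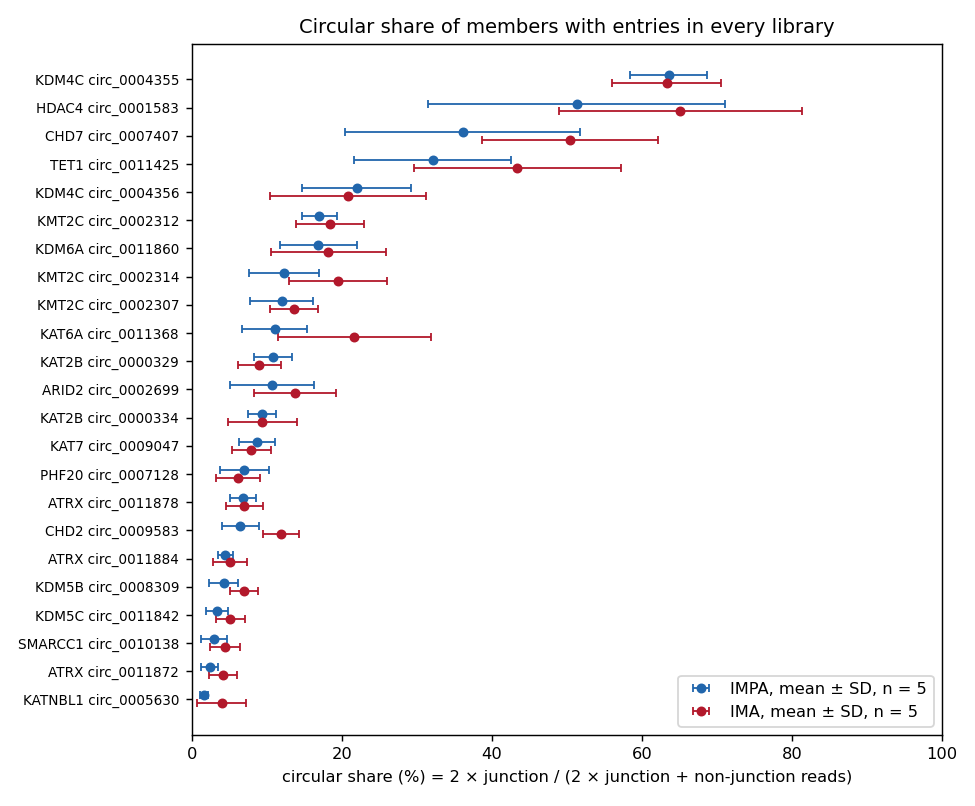
Circular share in percent (x axis, 0 to 100) of the 23 member circRNAs with entries in all 10 libraries, with IMPA in blue and IMA in red; points are means of 5 libraries and bars ± 1 SD. KDM4C circ_0004355 lies near 63% in both groups, most members lie under 25%, and the bars of CHD2 circ_0009583 do not overlap between the groups.

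In structure the members were close to other circRNAs. Spliced lengths are as listed in the annotation and were not measured. They ran from 56 to 544 nt with a median of 303 nt (320 nt for all 1327). Spans ran from 412 to 54373 nt with a median of 7314 nt (8045 nt for all). Both ends lay at the ends of listed exons in 32 of 41 members, 78% beside 78.3% of all. In the other 9 members, among them ZMYND8, TET1, KAT2B circ_0000327 and the pairs of EZH2 and CHD7, only 1 end lay at a listed exon, so their spliced length is partial. The annotation lists 39 members as exonic and 2 as intronic, HDAC4 and KDM4C circ_0004356. Members shared a junction end with another circRNA in 17 of 41 cases (41.5%, beside 31.3% of all), and 10 of 27 member genes had 2 or more circRNAs (37%, beside 25.8% of 945 host genes). Circles with a shared end also share non-junction reads there, so their ratios are not independent.

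Every member had at least 1 predicted miRNA in the deposited list of pairs, from 1 to 20 with a median of 10 (9 for all circRNAs). The 384 pairs of members named 219 miRNAs. The miRNAs listed for the largest number of members were chi-miR-136-3p and chi-miR-29a-5p, with 6 each. Those of chi-miR-136-3p (14.6%, beside 2.41% of all circRNAs) were the pair of CHD7, an ATRX, a CHD6, the HDAC4 and the MBD2 circle. Those of chi-miR-29a-5p (4.75% of all circRNAs) were 3 from ATRX and the 3 from KMT2C that share an end. Listed for 5 members each (2.41% to 6.48% of all circRNAs) were chi-miR-133a-3p, chi-miR-133b, chi-miR-125a-5p, chi-miR-125b-5p, chi-miR-326-3p, chi-miR-330-5p, chi-miR-432-3p and chi-miR-22-5p. These are predictions by name, with no site position, and the deposited files used here hold no miRNA level.

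Other chromatin genes outside the naming rule gave 19 circRNAs of 14 genes, among them RERE, ASH1L, SCMH1, BRWD1, HELLS and EED. With edgeR 0 of the 19 passed 0.01, at an unadjusted p under 0.05 0 were higher and 1 was lower, and the median log2 difference was −0.05. The one was HELLS, a remodeller of heterochromatin (log2 difference −1.19 ± 0.39, SE, edgeR adjusted p = 0.135). RERE circ_0008047, with 700 reads over all libraries, differed by 0.09 ± 0.15 (SE).

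Host genes that mark cell types or states were counted in the same libraries. Of the adipocyte list PLIN2, a lipid droplet coat protein, had 2 circRNAs and the other listed genes, FABP4, ADIPOQ and PPARG among them, had none; PLIN2 circ_0004263 had 2 to 4 reads in IMPA against 6 to 10 in IMA, and its non-junction reads were higher in IMA (log2 difference 1.94 ± 0.12, SE, edgeR adjusted p = 1.51e-14). The 4 circRNAs of striated muscle genes (MYBPC1, MYPN, FHOD3, STAC) summed to 2, 2, 8, 9 and 2 reads in IMPA1 to IMPA5 and 25, 22, 31, 32 and 35 in IMA1 to IMA5, with 2 of 4 past 0.01 and MYPN the most abundant. Of these 2, MYBPC1 had 0 reads in all IMPA libraries. It met the filter through IMA alone, so its test does not count as a result. The study had already called all 4 circRNAs higher in IMA from these same libraries, and the list was made with that known. Their rise in junction reads, singly or summed, therefore does not count as a result either. The other listed muscle genes gave no circRNA. The non-junction reads of MYPN were also higher (0.85 ± 0.10, log2, SE; edgeR adjusted p = 6.85e-08). The 7 circRNAs of cell cycle genes (ATAD2, BRIP1, CENPF, CIT) summed to 36, 33, 31, 33 and 44 reads in IMPA1 to IMPA5 and 10, 12, 22, 24 and 17 in IMA1 to IMA5, with 0 of 6 tested past 0.01 with edgeR, 2 lower at an unadjusted p under 0.05, ATAD2 the most abundant, and no circRNA of MKI67 or TOP2A. Non-junction reads could be tested at 2 of these circles, both of ATAD2, and differed by 0.15 ± 0.09 and 0.05 ± 0.09 (log2, SE; edgeR adjusted p = 0.195 and 0.686). The 7 of fibroblast and matrix genes summed to 33 to 66 reads in IMPA against 43 to 63 in IMA. FBN2 was the most abundant, and 1 passed 0.01, COL5A1, which the study had also called higher in IMA. The non-junction reads of this list could be tested at 5 circles. Of these 3 were higher past 0.01, COL5A2 by 0.64 ± 0.04 and FBN1 by 0.34 ± 0.06 and 0.29 ± 0.05 (log2, SE), and both of FBN2 were lower at an edgeR adjusted p of 0.039 and 0.0413. No circRNA of an endothelial or macrophage marker was counted. In reads the muscle and cell cycle sums did not overlap between the groups; after scaling the muscle sums did not (359 ± 291 against 2669 ± 578 normalized TPM, SD, n = 5 each) and the cell cycle sums did, with 2688 ± 240 against 1564 ± 589 (SD, n = 5 each). Their part in the members' values was not tested.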

How the data were processed

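The authors removed ribosomal RNA, mapped clean reads with HISAT2 and kept circRNAs found by both find_circ (at least 2 reads) and CIRI2; the submitters' processing notes name SAMtools. The genome build is not named, and tool versions are not given, in the sources used here. The deposited counts are junction reads per circRNA and library, without normalization, and the values the authors named TPM are CPM, since they equal count × 1000000 / library sum (largest difference 4.99e-06) with no length term. Junction and non-junction reads per library also stand in the deposited circRNA table, which gave locations and host genes and whose junction reads were the same (0 differ); 10 library names in it are no sample here and were not used. Positions are printed 1-based, with each start shifted from the 0-based start in that table and each end as listed there. Gene IDs of all 27 host genes had the same symbol in RefSeq (ARS1.2), which was used for names and chromosomes, 3 of the genes being on X there and on an unplaced sequence in the files.

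Groups were taken from the labels. Members and lists were chosen with earlier results of these data known. Roles follow the start of the gene name, which puts ARID4A under remodelling and PHF10 under readers. Tests were fitted on the whole table with edgeR 4.0.16 (TMM, glmQLFit and glmQLFTest, two-sided) in R 4.3.3 over circRNAs counted in 5 or more of the 10 libraries, with Benjamini-Hochberg adjustment over all of them and a threshold of 0.01, the study's q-value. The same test was run on junction reads summed per host gene and on non-junction reads. The latter had been planned with the filter above, but entries are missing wherever the circle was not counted, so only circRNAs with entries in all 10 libraries were tested. The log2 ratio of junction to non-junction reads, each plus 0.5, was tested with limma 3.58.1 where at least 5 libraries and 2 per group had entries. Log2 fold changes are unshrunk edgeR estimates, and each SE is the estimate over the root of its F. A group was taken as at the floor where no library had more than 3 reads. A fold against it is a bound computed against 3 reads per library, used only in a median, and none is printed. The floor covers counting error only.

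Named circRNAs are members with an adjusted p under 0.05, the 10 most abundant, those of smallest p in each direction (5 for junction reads, 3 for non-junction reads, 3 for the ratio), those whose groups do not overlap, and genes with 3 or more circRNAs. Other members named beside them (KDM4C circ_0004356, EZH2, KAT7, HDAC4, CHD1, CHD6, CHD7, ARID2 and PHF14) complete the account by role and were added after the values were seen. Alternatives were DESeq2 1.42.0 (size factors and Wald test), limma voom, no TMM, the study's uniquely mapped reads as library size, no filter, a mean count of at least 10, a pseudocount of 1, a threshold of 0.05, blocking on replicate number, and omission of each library in turn.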

Additional observations from a re-analysis of the deposited data

Results flagged for a closer look

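In 9 of 54 groups of 5 libraries, the farthest library of a member's normalized TPM, or of the members' share, lay apart from the rest by more than 0.71 of the group's range. For normally distributed values chance flags about 1 in 20 groups. The rate for small counts with zeros, as here, was not computed. Of the 9 flagged values 3 rest on a count of 4 or fewer in a library beside zeros in the others. The 54 groups do not cover all 41 members. PHF10 circ_0005154, with 148 normalized TPM in IMPA3 and 0 in the other IMPA libraries, is not among the 9. The members' share of junction reads was 2.12% in IMPA1, where the other IMPA libraries had 2.54% to 2.64%. Where the other 4 libraries were at 0, MBD2 circ_0010617 had 219 normalized TPM in IMPA1, KAT2B circ_0000327 had 288 in IMA5 and NCOA6 circ_0007107 had 401 in IMA4. KATNBL1 circ_0005630 had 1333 normalized TPM in IMA2, beside 240 to 442 in the other IMA libraries. ARID4A circ_0005351 had 1119 in IMPA5, beside 417 to 519. KMT2C circ_0002324 had 320 in IMA3, beside 177 to 200. ATRX circ_0011872 had 801 in IMA4 (286 to 400 in the others), and ATRX circ_0011878 had 960 in IMA3 (381 to 530 in the others). The causes were not tested.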

How the results depend on the processing

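Under every alternative run, including each library left out, edgeR and limma voom called 0 members at 0.01 for junction reads and, with DESeq2, for junction reads per host gene, as did limma for the ratio. For junction reads per circRNA, DESeq2 left an adjusted p for 1 of 41 members, and without its independent filtering, an alternative added after the data were seen, it called 0. At 0.05 the main counts were also 0, while for junction reads CHD2 circ_0009572, which met the filter through IMA alone, passed with uniquely mapped reads and with limma voom, and KAT2B circ_0000327 without IMA5, where it met the filter through IMPA alone. Of host genes KMT2E and, with the reads of circ_0009572, CHD2 passed with uniquely mapped reads. CHD2 circ_0009583 alone did not pass under that scaling (edgeR adjusted p = 0.155). KAT2B passed with a mean count of at least 10, as did the ratio of CHD2 circ_0009583. For non-junction reads the main count of 1 became 2 at a threshold of 0.05 and 2 with the replicate block (PHF20 and SMARCC1), and it ranged from 0 to 2 with a library left out, 0 without IMPA3 or IMA2. Residuals of junction reads showed no pairing by replicate number (correlations of same-numbered libraries −0.0524 to 0.0105). Most counts were under 10, so this check could miss a pairing. For non-junction reads 173 of the 690 circRNAs passed 0.01 with the block, beside 150 without it. The block changed no other count of members past 0.01. The members' share differed by 0.11 (log2, IMA minus IMPA; SD within groups 0.10), by 0.29 with uniquely mapped reads as denominator and by 0.05 to 0.13 with a library left out. Signs turned only for results whose main value lay within 1 SE of 0. With uniquely mapped reads PHF20 circ_0007128 became 0.17, KDM4C circ_0004355 0.11, ATRX circ_0011878 0.04, ATRX circ_0011884 0.12 and the KMT2C sum 0.20, which was 0.02 without TMM. With limma voom TET1 became −0.04 and KMT2C circ_0002324 0.26, and with the replicate block the ATRX sum became −0.01. With a library left out the ranges that cross 0 were −0.31 to 0.12 (PHF20 circ_0007128), −0.13 to 0.32 (SMARCC1 circ_0010138), −0.14 to 0.31 (KDM6A circ_0011860), −0.17 to 0.22 (TET1 circ_0011425), −0.10 to 0.36 (KDM5C circ_0011842), −0.58 to 0.25 (KMT2C circ_0002324), −0.41 to 0.03 (ATRX circ_0011884), −0.11 to 0.11 (ATRX sum) and −0.16 to 0.08 (KMT2C sum). The causes were not tested. No filter was not run for non-junction reads, since missing entries would become zeros. Non-junction reads with missing entries dropped, the ratio over circRNAs with all entries and the share without ZMYND8 (0.09) were added after the data were seen. A median member had 59 junction reads over 10 libraries, beside 55 over all circRNAs, of which 12 passed.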
